A study of Xenopus laevis x Xenopus muelleri with 8 samples.

Results

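The glucocorticoid receptor gene nr3c1 and its target gene sgk1 were followed across 8 ovaries of hybrid frogs. The members were all probe sets listed under nr3c1.L, nr3c1.S or sgk1.L alone in the platform annotation. This gave 1 probe set per gene, and so 3 of the 11485 probe sets and 3 of the 5790 genes with a probe set of their own. The pair nr3c1.L and sgk1.L had been picked because their values differed between the 2 groups of ovaries, and nr3c1.S because it is the homeolog of the first. The differences between groups are therefore given below for these 3 probe sets as a description, with no test. Homeologs are the paired gene copies that the Xenopus laevis genome kept from its doubling, marked by the endings .L and .S. No probe set was listed for sgk1.S.

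All animals had a laevis mother from the Cape of South Africa and a muelleri father from Swaziland, were raised from eggs under a 12L:12D photoperiod, and were sexually mature. By title, 4 arrays each held RNA of 1 normal ovary and 4 arrays each that of 1 sex-reversed ovary, all as biological replicates. The sources used here give neither ages nor the means of sex reversal. The source names called every sample a testis, where titles, descriptions and protocol said ovary, and that of sex-reversed replicate 4 also said normal. This array was grouped by its title.

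The glucocorticoid receptor is a transcription factor that waits in the cytoplasm in a complex with Hsp90 and its co-chaperones. On binding a corticosteroid, which in frogs is mainly corticosterone, it enters the nucleus and raises or lowers the transcription of its target genes. The kinase encoded by sgk1 was named for its induction by serum and glucocorticoids. It is also induced through the mineralocorticoid receptor and by osmotic stress, is activated through the kinase complex mTORC2 and PDK1, and acts on ion channels and transporters, among them the epithelial sodium channel through the ubiquitin ligase Nedd4-2. In the ovary, somatic cells around the oocyte are a known site of both genes in mammals.

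The tissue was checked first. Markers of the oocyte were bright, and the mean over their 9 genes on each array lay between 9.82 and 10.13 in normal and between 9.82 and 10.16 in sex-reversed ovary (log2 expression). The 7 testis and sperm genes averaged 3.57 to 4.04 in normal and 3.56 to 3.85 in sex-reversed ovary. The brightest of them were sox9.S, with means of 5.48 in normal and 4.76 in sex-reversed ovary, and lhx9.L, with 4.15 and 5.11. The lower quartile of an array lay at 3.99 to 4.05 and its median at 6.0 to 6.04. Across all probe sets 0 of 11485 passed an adjusted p of 0.05 in limma (0%), while 733 had an unadjusted p under 0.05 (6.38%), 369 of them higher in sex-reversed ovary (3.21%) and 364 lower (3.17%). The median difference over all probe sets was 0.00 (log2). By their whole profiles the arrays fell into 2 sets that cut across the groups. Set A held normal replicates 1 and 4 and sex-reversed replicates 3 and 4, and set B held the other 4 arrays. Nothing in the labels says what separates the sets.

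The receptor gene nr3c1.L was higher on every sex-reversed array than on any normal array. Its log2 expression was 3.45, 3.28, 3.77 and 4.27 in normal replicates 1 to 4. In sex-reversed replicates 1 to 4 it was 4.81, 4.82, 4.89 and 4.99. The highest normal array, replicate 4, lay 0.54 below the lowest sex-reversed array. The means were 3.69 ± 0.44 (SD, n = 4) and 4.88 ± 0.08 (SD, n = 4), a difference of 1.19 ± 0.22 (log2, SE from the fit over all probe sets), or 2.28-fold on the linear scale.

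The 4 sex-reversed values of nr3c1.L lay within 0.18 of each other, against 0.99 for the 4 normal ones. Only 4.64% of all probe sets had a smaller SD in sex-reversed ovary, and 73.5% had a smaller SD in normal ovary. Normal replicates 1, 2 and 3 lay below the lower quartile of their arrays, so that in 3 of 4 normal ovaries this probe set was dim. Detection above background was not measured, and the fold depends on values in this low range.

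The kinase gene sgk1.L had the opposite order. It measured 5.32, 5.63, 5.13 and 5.25 in normal replicates 1 to 4 and 4.26, 3.99, 4.32 and 4.90 in sex-reversed replicates 1 to 4. All 4 normal arrays were above all 4 sex-reversed arrays, and sex-reversed replicate 4 came closest, 0.23 below the lowest normal array. The normal mean was 5.33 ± 0.21 (SD, n = 4) and the sex-reversed mean 4.37 ± 0.38 (SD, n = 4). The difference was -0.97 ± 0.21 (log2, SE), so that normal ovary was 1.95-fold higher on the linear scale. Here the wider group was the sex-reversed one, with a range of 0.90 against 0.50. Sex-reversed replicate 2, at 3.99, lay below the lower quartile of its array, 4.03. Every sgk1.L value lay below the median of its array, so this fold also depends on low values. In these bulk samples fewer cells of a type and less RNA per cell cannot be told apart.

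The second receptor homeolog, nr3c1.S, did not share the pattern of nr3c1.L. Its normal values were 3.82, 4.84, 5.37 and 4.90 in replicates 1 to 4. The sex-reversed values were 4.68, 4.63, 4.59 and 4.21, all inside the normal range. Normal replicate 1 was the lowest of the 8 arrays and normal replicate 3 the highest. The means were 4.73 ± 0.65 (SD, n = 4) and 4.53 ± 0.21 (SD, n = 4), and the difference was -0.21 ± 0.31 (log2, SE). Without normal replicate 3 it was 0.01, and without normal replicate 1 it was -0.51. The normal SD of nr3c1.S was larger than that of 88.1% of all probe sets, as normal replicates 1 and 3 stood 1.55 apart.

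Groups that did not overlap were thus found in 2 of the 3 probe sets, 1 in each direction. Over all deposited probe sets this held for 466 of 11485 (4.06%), 241 higher in sex-reversed ovary (2.1%) and 225 lower (1.96%). Since the members were picked by this contrast, nothing is read from their share. With sex-reversed replicate 4 counted as normal, as its source name says, the groups overlapped for nr3c1.L, where this array has the highest value of all, and stayed apart for sgk1.L alone. An absolute difference as large as that of nr3c1.L occurred in 1.18% of probe sets, and one as large as that of sgk1.L in 2.13%.

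A further receptor probe set lies outside the selection, because the annotation lists it under nr3c1.L and nr3c1.S together. It measured 7.33, 7.44, 7.65 and 7.68 in normal replicates 1 to 4. The sex-reversed values were 7.76, 7.24, 7.18 and 7.46. Sex-reversed replicate 1 was the highest of the 8 arrays and sex-reversed replicate 3 the lowest, so that the sex-reversed arrays enclosed all normal ones. The means were 7.53 ± 0.17 (SD, n = 4) and 7.41 ± 0.26 (SD, n = 4), with a difference of -0.11 ± 0.17 (log2, SE). An absolute difference at least as large was seen in 64.6% of all probe sets. The higher values of the nr3c1.L probe set in sex-reversed ovary were thus not matched by higher values on the probe set listed under both copies. Levels of different probe sets are not comparable, so the share that each homeolog contributes to the joint signal is not known. The identifier of the joint probe set differs from that of nr3c1.S only in its ending, while nr3c1.L has an unlike one.

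**Figure D1:**
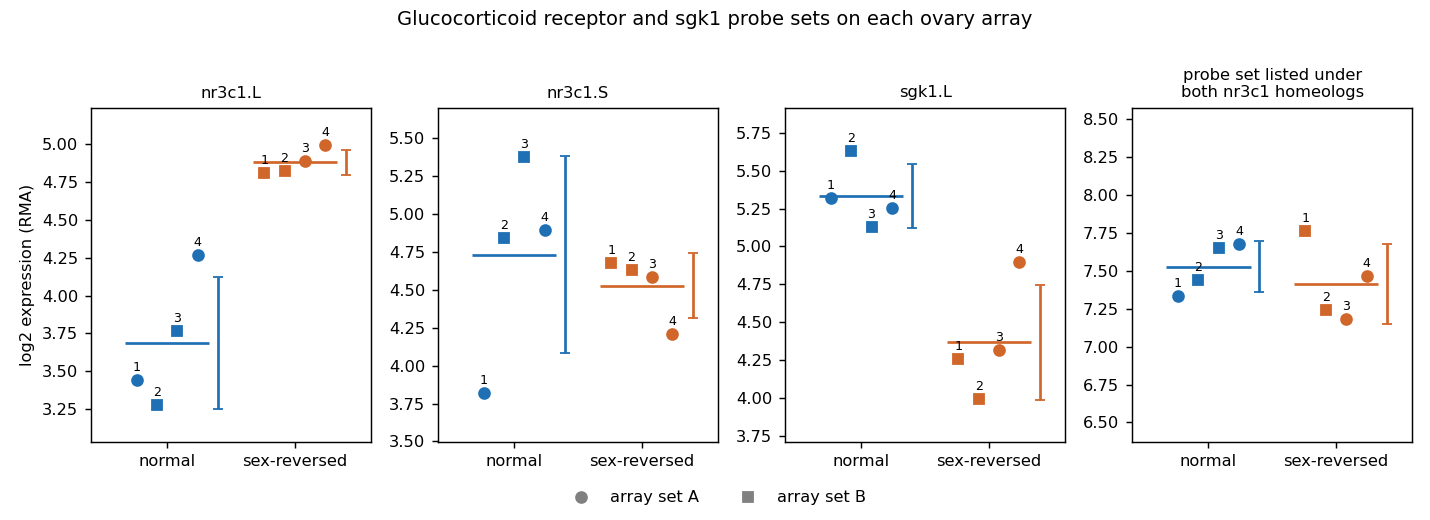
Log2 expression (RMA) on each of the 8 arrays for nr3c1.L, nr3c1.S, sgk1.L and the probe set listed under both nr3c1 homeologs, with replicate numbers above the points, circles for array set A, squares for set B, a line at the group mean and a bar of 1 SD to either side. The vertical axes start at different levels but span the same range; nr3c1.L and sgk1.L separate the groups in opposite directions, and the other 2 panels overlap.

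The differences were also computed inside each array set. In set A nr3c1.L differed by 1.08 and in set B by 1.29 (log2, sex-reversed minus normal, 2 arrays against 2 in each). For sgk1.L the values were -0.68 in set A and -1.25 in set B. The smaller difference of sgk1.L in set A went with sex-reversed replicate 4, whose sgk1.L value was the highest of its group. For nr3c1.S the sets went different ways, with 0.04 in set A and -0.45 in set B. The probe set listed under both homeologs gave -0.18 and -0.04. With 2 arrays a group inside a set these values have no test.

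The next question was whether receptor and target moved together from ovary to ovary. Over all 8 arrays nr3c1.L and sgk1.L were inversely related, with Pearson's r = -0.83 and Spearman's rho = -0.76. Both genes had been picked for group differences of opposite sign, and the groups lie apart on both axes, so the sign of this pooled value was fixed by the choice and it is given with no p. Without normal replicates 1 and 2, the arrays farthest from the median of nr3c1.L, r was -0.67. Over all 8 arrays 0.71% of probe sets had an r with sgk1.L of -0.83 or lower. The choice of the pair affects this share as well.

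Inside the groups the relation had a different sign in each. Among the 4 normal arrays r was -0.65, where replicate 2 had the lowest nr3c1.L and the highest sgk1.L. Among the 4 sex-reversed arrays r was 0.93, where replicate 4 had the highest value of both genes. With 4 arrays each, these 2 values have no test, nor was the difference between them tested. After each group's mean was subtracted, Pearson's r over the 8 arrays was -0.16 (two-sided exact permutation within groups, p = 0.674, adjusted p = 0.674 over 2 receptor and target pairs). Spearman's rho was -0.12 (exact permutation p = 0.795, adjusted p = 0.795). For the group-centred values, 36.0% of all probe sets had an r with sgk1.L as low or lower. The sign turned without normal replicate 2, where r was 0.17, and stayed negative without any other single array, down to -0.52 without sex-reversed replicate 4. Without normal replicates 1 and 2 together, the arrays farthest in nr3c1.L, it was 0.47 (exact permutation p = 0.0417, adjusted p = 0.0625 over the 2 pairs). Counting sex-reversed replicate 4 as normal, as its source name says, gave -0.77 (exact permutation, adjusted p = 0.147).

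The pair nr3c1.S and sgk1.L showed no relation over all arrays, with r = 0.04 and rho = 0.14 over the 8 arrays. Without normal replicates 1 and 3, which lie farthest from the median of nr3c1.S, r was 0.33, and the group-centred r of the remaining 6 arrays was -0.89 (exact permutation p = 0.0625, adjusted p = 0.0625 over the 2 pairs). Group-centred values gave r = -0.36 (two-sided exact permutation within groups, p = 0.252, adjusted p = 0.503 over the 2 pairs) and rho = -0.57 (exact permutation p = 0.125, adjusted p = 0.25). Among normal arrays r was -0.24 and among sex-reversed arrays -0.92. In the latter, replicate 4 had the lowest nr3c1.S and the highest sgk1.L. Leaving out normal replicate 1 gave r = -0.81 and leaving out normal replicate 2 gave r = -0.46, each with an adjusted p of 0.0417 in the exact permutation test, so this call rests on which normal arrays are counted.

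The receptor probe sets were also set against each other inside the groups, as values with no adjustment. The centred r of nr3c1.L and nr3c1.S was 0.30 (two-sided exact permutation p = 0.703). It was 0.38 among normal and -0.97 among sex-reversed arrays. The probe set listed under both homeologs gave a centred r of 0.41 with nr3c1.L (exact permutation p = 0.222) and of 0.43 with nr3c1.S (exact permutation p = 0.200). With sgk1.L its centred r was 0.01 (exact permutation p = 0.990). By Pearson's r 0 of these 4 pairs had a p under 0.05. By Spearman's rho the joint probe set and nr3c1.S gave 0.71 (exact permutation p = 0.0347). As their identifiers differ only in the ending, they are not taken as separate readings of the receptor.

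**Figure D2:**
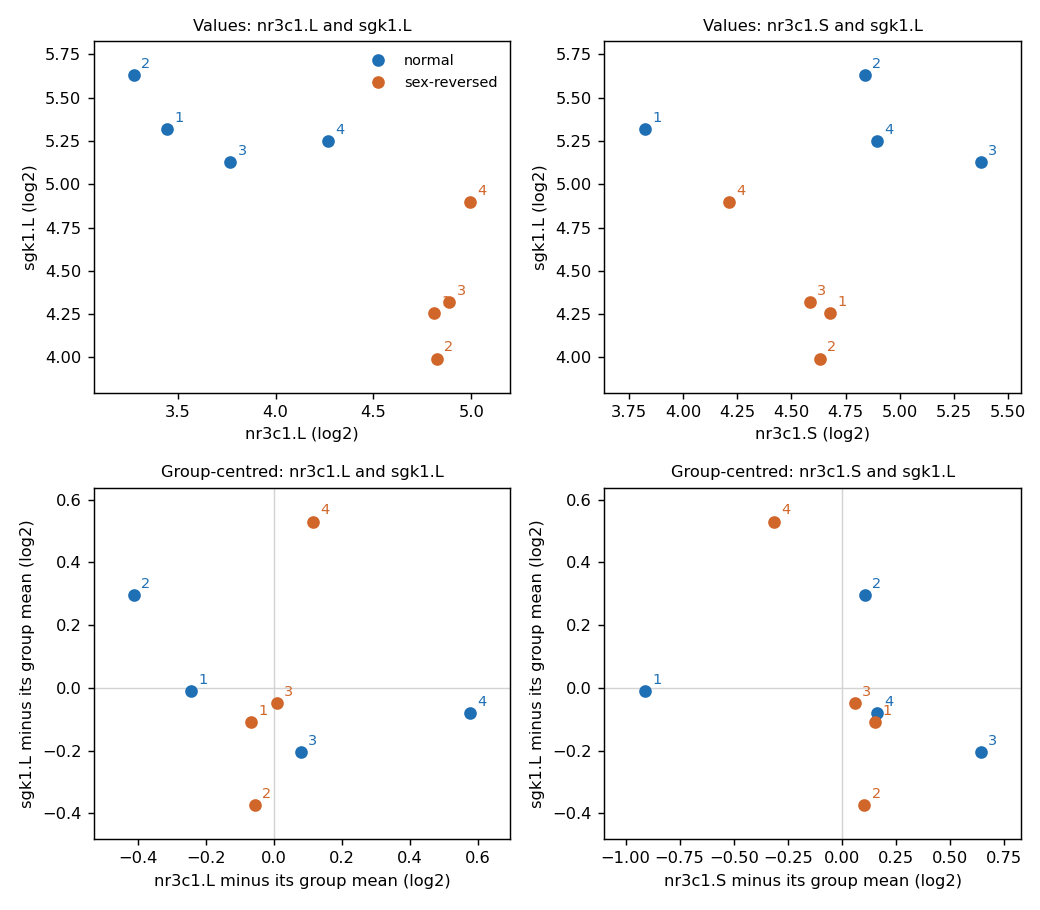
Scatter plots of sgk1.L against nr3c1.L (left) and nr3c1.S (right), in log2 expression, 1 point per array with its replicate number, blue for normal and orange for sex-reversed ovary; the upper panels show the values and the lower panels the same values minus their group's mean. The upper left panel shows 2 separate groups of points with r = -0.83 over all 8, and the lower left panel shows r = -0.16 once the group means are removed.

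The probe sets most like each member were found by Pearson's r over the 8 arrays. With so few arrays a high r is weak evidence of a relation, and none of these was tested. Of the 11485 probe sets 28 had an absolute r over 0.9 with nr3c1.L, 25 with nr3c1.S and 44 with sgk1.L. For group-centred values these counts were 55, 96 and 77. The closest to nr3c1.L was clp1.L, a kinase of RNA processing, at r = 0.97. It was followed by tll1.S, an astacin-type metalloprotease, at 0.95 and phr.L at 0.94. The most opposed named probe sets included actb.L, a cytoplasmic actin, and cib1.L, a calcium and integrin binding protein, both at r = -0.92. For sgk1.L the closest was hnrnpa1.S, an RNA-binding protein, at r = 0.98, by 1 of its 3 probe sets. It differed by -0.70 ± 0.19 (log2, SE) between groups. Since sgk1.L and nr3c1.L were picked for their group differences, a high pooled r with either brings such a difference along. Next came efcab14.S at 0.94 and acad9.S, a mitochondrial acyl-CoA dehydrogenase family member, at 0.92. The most opposed were strn.S, a striatin, at r = -0.96 and arpc1a.S, a subunit of the actin-nucleating Arp2/3 complex, at -0.95. The genes phr.L, actb.L and arpc1a.S had 2 probe sets each and strn.S had 3, and each r given is that of 1 of them.

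For nr3c1.S the closest probe set was cd9.S, a tetraspanin, at r = 0.94, and the vitamin D receptor gene vdr.S was also among the 5 closest at 0.90. The most opposed was ube3c.S, a ubiquitin ligase, at r = -0.96, by 1 of its 2 probe sets. The arginine methyltransferase gene carm1.S, a coactivator of steroid receptors, was among the 5 most opposed at -0.92. Group-centred values named other genes. Closest to nr3c1.L was then tmem50b.L at r = 0.97, to nr3c1.S faf1.S at 0.97 and to sgk1.L boc.L, a cell surface receptor of the Hedgehog pathway, at 0.99. The 5 highest and 5 lowest by either measure shared 1 probe set between the measures, ube3c.S, which had a centred r of -0.98 with nr3c1.S.

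The rest of the pathway was described from 9 lists of genes, with 1 probe set a gene. Of 105 genes 0 passed an adjusted p of 0.05 in limma in either direction. At an unadjusted p of 0.05 there were 4 higher and 3 lower genes in sex-reversed ovary, or 6.67%, near the 6.38% of all probe sets. Over all 5790 genes, with 1 probe set each as in the lists, the share was 6.01%. The 6.38% set beside single lists below counts every probe set. The median difference over the 105 genes was -0.01 (log2), against 0.00 over all probe sets, and 52 genes were on the higher and 53 on the lower side. Groups did not overlap for 2 higher and 2 lower genes of the 105, named below. Over all deposited probe sets this held for 466 of 11485 (4.06%), so these separations are not read as a result about the pathway.

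Chaperones that hold the receptor gave 0 of 12 genes at an unadjusted p of 0.05, with a median difference of -0.08 (log2). The Hsp90 gene hsp90ab1.S had means of 9.71 ± 0.24 (SD, n = 4) and, in sex-reversed ovary, 9.75 ± 0.35 (SD, n = 4). The co-chaperone gene fkbp4.S, an immunophilin of receptor complexes, differed by -0.03 ± 0.25 (log2, SE). For stip1.L, which links Hsp70 to Hsp90, the groups did not overlap, at 9.58 to 9.70 in normal and 9.37 to 9.58 in sex-reversed ovary. Its difference was small, -0.17 ± 0.12 (log2, SE), with an unadjusted p of 0.190 in limma. The Hsp90 co-chaperone gene ahsa1.L differed by -0.32 ± 0.28.

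Coregulators that receptors recruit had 1 of 16 genes at an unadjusted p of 0.05 (median difference -0.02). This was pias1.L, a SUMO ligase, at 0.38 ± 0.15 (log2, SE), while its other probe set gave -0.54 ± 0.43. Among 6 other steroid receptor genes none reached it (median difference -0.05). The mineralocorticoid receptor gene nr3c2.L, the nearest relative of nr3c1, ran from 5.37 to 6.68 in normal and from 6.01 to 7.18 in sex-reversed ovary. Its difference was 0.44 ± 0.33 (log2, SE) and the groups overlapped. The membrane progesterone receptor component gene pgrmc1.L differed by -0.22 ± 0.20.

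Enzymes of corticoid synthesis and breakdown were represented by 5 genes, of which srd5a1.S, a steroid 5-alpha-reductase, was at -0.65 ± 0.27 (log2, SE) and was the single one at an unadjusted p of 0.05. The enzymes that interconvert active and inactive corticosteroids, hsd11b1 and hsd11b2, had 0 probe sets of their own. Of the stress hormone axis 2 genes were measured, pomc.S at 0.46 ± 0.27 and pomc.L at 0.37 ± 0.22. All means of both genes lay between 3.36 and 4.24, close to or below the lower quartile.

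Known glucocorticoid targets other than sgk1 had 3 of 19 genes at an unadjusted p of 0.05, 2 higher and 1 lower. This was 15.8%, against 6.38% of all probe sets, and the median difference was 0.07 (log2). The thioredoxin-binding protein gene txnip.L measured 10.69 to 11.25 in normal and 11.36 to 11.77 in sex-reversed ovary, with no overlap. It differed by 0.61 ± 0.16 (log2, SE; adjusted p = 0.666 in limma). The sestrin gene sesn1.L differed by 1.55 ± 0.55, but normal replicates 1 and 4, at 3.41 and 3.13, stood below normal replicates 2 and 3, at 5.71 and 5.11. These replicates 1 and 4 are the 2 normal arrays of set A. The MAP kinase phosphatase gene dusp1.S differed by -0.39 ± 0.17, and its homeolog dusp1.L, with means of 3.03 and 3.18, by 0.15 ± 0.36.

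The targets tsc22d3 and klf9, often used to read receptor activity, had overlapping groups. Those of sgk1.L and txnip.L, given above, did not overlap, and receptor activity was not tested. The gene tsc22d3.L, which encodes the glucocorticoid-induced leucine zipper protein, measured 8.34, 8.06, 8.01 and 8.13 in normal replicates 1 to 4. In sex-reversed replicates 1 to 4 it measured 8.14, 8.35, 8.40 and 8.20. The groups overlapped, and the difference was 0.14 ± 0.14 (log2, SE). Its homeolog tsc22d3.S, with means of 3.61 and 3.68, below the lower quartile of the arrays, differed by 0.07 ± 0.18. The transcription factor gene klf9.L, a receptor target in tadpoles, ran from 4.41 to 5.71 in normal and from 4.74 to 5.86 in sex-reversed ovary, with a difference of 0.18 ± 0.35. The genes fkbp5 and per1 had 0 probe sets of their own.

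Upstream of the kinase, 1 of 11 genes of its family and its activators reached an unadjusted p of 0.05. This was mlst8.L, a subunit shared by both mTOR complexes, at 7.20 to 7.52 in normal and 7.64 to 7.91 in sex-reversed ovary, a difference of 0.42 ± 0.13 (log2, SE; adjusted p = 0.727 in limma). Probe sets for sgk2, sgk3, pdpk1 and rictor alone numbered 0. Among 17 genes of its substrates and channels none reached it, by 1 probe set a gene (median difference -0.09). Another probe set of ndrg2.S, a gene of this list, did so without overlap, at 0.57 ± 0.20 (log2, SE; adjusted p = 0.733 in limma). The counted probe set of ndrg2.S gave 0.24 ± 0.15, and a further one 0.12 ± 0.17. The ubiquitin ligase gene nedd4l.S differed by -0.05 ± 0.20 and the substrate gene ndrg1.L by -0.37 ± 0.25. The sodium channel subunit genes scnn1g.S, scnn1g.L, scnn1b.S and scnn1a.L differed by -0.89 ± 0.50, -0.09 ± 0.34, 0.44 ± 0.87 and 0.05 ± 0.14. These errors leave differences above 2-fold inside the range of scnn1g.S and scnn1b.S. The means of scnn1a.L, 2.91 and 2.96, lay below the lower quartile of the arrays, so its small difference and error are not read as absence of a change. The caveolin gene cav1.L differed by -0.48 ± 0.22, from means of 3.49 and 3.02, below the lower quartile of the arrays.

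As sgk1 is itself induced quickly by stress, the immediate early and osmotic stress genes were listed too. Of 21 genes 2 reached an unadjusted p of 0.05, both lower (9.52%, against 6.38% of all probe sets). The median difference of the list was 0.00 (log2). The AP-1 gene jun.L measured 9.39, 9.10, 9.55 and 9.25 in normal replicates 1 to 4. In sex-reversed replicates 1 to 4 it measured 8.72, 8.65, 9.01 and 8.50. All normal arrays were above all sex-reversed ones, and jun.L differed by -0.60 ± 0.16 (log2, SE; adjusted p = 0.666 in limma). The other one was dusp1.S, which is also on the target list.

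**Figure D3:**
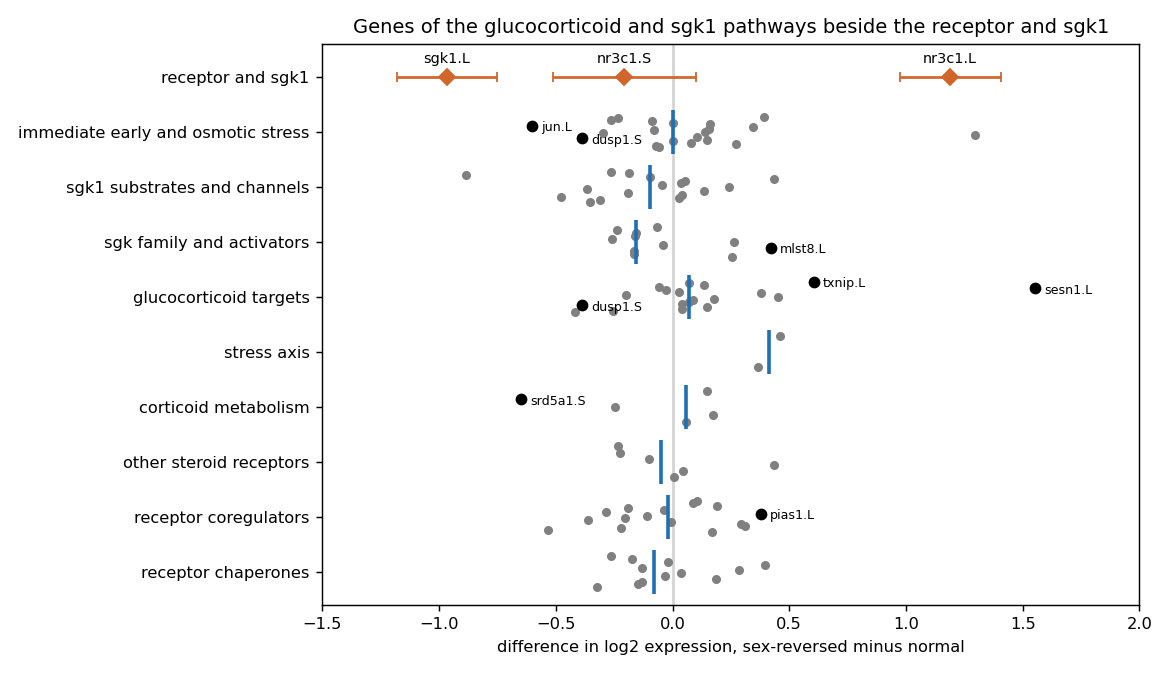
Difference in log2 expression, sex-reversed minus normal ovary, for nr3c1.L, nr3c1.S and sgk1.L (orange, with 1 SE) and for 1 probe set of each gene on the 9 pathway lists (grey, with black and a symbol where the unadjusted limma p was under 0.05, and a blue line at the list's median). The list medians lie within 0.16 of 0 except for the 2 genes of the stress axis, at 0.41, while nr3c1.L lies at 1.19 and sgk1.L at -0.97.

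Among markers of other cell types, those of stroma and extracellular matrix had a list mean that narrowly separated the groups. The mean over 7 genes was 6.46 to 6.95 on normal and 6.04 to 6.45 on sex-reversed arrays, without overlap, and 5 of the 7 were lower. Normal replicate 1, at 6.462, lay just above sex-reversed replicate 2, at 6.448. With sex-reversed replicate 4, at 6.35, counted as normal, the groups overlapped. At an unadjusted limma p of 0.05 there were 3 lower, the collagen genes col3a1.S at -1.44 ± 0.48 (log2, SE) and col1a1.S at -0.98 ± 0.43 and the matrix protein gene sparc.S at -0.58 ± 0.24, and 1 higher, the fibroblast receptor gene pdgfra.L at 0.70 ± 0.27. Of the 7 stroma genes 57.1% thus had an unadjusted p under 0.05, against 6.38% of all probe sets. Further probe sets of col3a1.S and pdgfra.L gave -0.08 and -0.12. A part of stromal cells in the differences of nr3c1.L and sgk1.L was not tested. The mean of the 4 follicle cell genes was 4.82 to 4.96 in normal and 4.85 to 5.08 in sex-reversed ovary. Of these, gata4.S, with means of 3.18 and 3.22, lay below the lower quartile, and fst.L, with 4.10 and 3.83, near it. This list is therefore a weak reading of follicle cells. The list means of follicle cell, testis and sperm, leukocyte, endothelial, smooth and skeletal muscle, erythrocyte, and liver and fat body markers overlapped between groups. Among their single genes, with 1 probe set each, cd247.S, ca2.L and lhx9.L did not overlap between groups, as held for 4.06% of all probe sets. The T cell receptor subunit gene cd247.S gave 0.64 ± 0.21 (log2, SE), with means of 3.47 and 4.10. The carbonic anhydrase gene ca2.L gave 0.35 ± 0.13, with means of 3.03 and 3.37, and its homeolog ca2.S -0.04 ± 0.13. Both means of ca2.L and the normal mean of cd247.S lay below the lower quartile. The LIM homeobox gene lhx9.L gave 0.96 ± 0.17. It is on the testis and sperm list, which had 2 higher and 5 lower genes. Of the leukocyte list, which holds cd247.S, 5 of 7 genes were lower. The endothelial genes pecam1.L and cldn5.L gave -0.38 ± 0.14 and -0.54 ± 0.23. The means of cldn5.L, 3.96 and 3.42, lay below the lower quartile. Its homeolog cldn5.S gave 0.35 ± 0.17 and tek.S 0.44 ± 0.53, so the list had 2 higher and 3 lower genes. Of its 5 genes, 2 had an unadjusted limma p under 0.05 (40%, against 6.38% of all probe sets). At the same unadjusted level lcp1.S of the leukocyte list gave -0.45 ± 0.16, tagln.L of smooth muscle -0.98 ± 0.43 and ambp.L of liver and fat body 1.21 ± 0.35. All had an adjusted limma p over 0.05. Further probe sets of ambp.L gave -0.20 and -0.17. Its list had 4 higher and 4 lower genes, and that of smooth muscle 2 higher and 3 lower. Of the interrenal and kidney markers 0 had a probe set of their own.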

How the data were processed

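Total RNA of 8 ovaries had been hybridised to Affymetrix arrays as biotin-labelled target, per the labels' protocols. The deposited table gives 1 log2 value per probe set and array. It held 0 control probe sets and may not hold every probe set of the array. All shares, and genes said to have no probe set, refer to the deposited probe sets. The submitters' processing notes name RMA, with no version. RMA subtracts background, quantile normalizes arrays and summarises probes. The log base was read from the range of the values. Detection was not measured, the number of arrays limits the precision, and RMA hides any shift common to all transcripts. The array targets X. laevis sequence, so muelleri alleles may bind less well. Gene names are those of the platform annotation used here. Of 11485 probe sets 6798 had 1 symbol, 110 several and 4577 none listed.

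All probe sets were fitted on 8 arrays with limma 3.58.1 (R 4.3.3), two-sided, with no covariate and Benjamini-Hochberg adjustment. Lists used the probe set of highest mean per gene. Centred correlations over all 8 arrays were tested by exact permutation over 576 orders within groups, where the smallest possible p is 0.00174. With arrays left out there were fewer orders, 48 without the 2 farthest arrays, and the smallest possible p was larger. Array sets came from average-linkage clustering on 1 minus Pearson's r. Both procedures were tested on simulated data. Members, lists and tests were chosen with earlier results of these data known. Named genes were the members and the 5 closest and 5 most opposed probe sets of each. Each list gave up to 4 genes at an unadjusted p under 0.05, otherwise the 2 of smallest p. A fixed set of receptor and kinase partners and targets was also named. Marker genes, pias1.L's other probe set, those of ndrg2.S and the probe set listed under both homeologs were added after their values were seen. The labels do not say how the animals were related, and p-values cover the spread among these 8 samples alone. Arrays correlated at 0.943 to 0.972 and none were duplicates. Same-numbered replicates did not deviate together (correlations of -0.19, 0.24, -0.19 and 0.17), so the numbers were not taken as pairs. Alternatives were a replicate block, an array set block, 2 normalizations, a filter on low values, another prior, array weights, sex-reversed replicate 4 counted as normal, and each array left out.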

Additional observations from a re-analysis of the deposited data

Results flagged for a closer look

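In 3 named genes 1 sex-reversed array stood far from the others by Dixon's criterion, which chance meets in about 1 of 20 groups. Over all members, pathway and marker probe sets 24 of 410 groups met it. The co-chaperone gene ahsa1.L was at 6.45 in sex-reversed replicate 3 and at 5.53 to 5.67 in the other sex-reversed arrays. The gene pomc.L was at 4.85 in sex-reversed replicate 2 and at 4.0 to 4.06 in the others. The second probe set of pdgfra.L, a stroma marker, was at 4.97 in sex-reversed replicate 2 and at 4.10 to 4.15 in the others. No array of nr3c1.L, nr3c1.S or sgk1.L met the criterion in either group, and sex-reversed replicate 4 of nr3c1.S came closest.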

How the results depend on the processing

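Under the replicate block 0 probe sets passed. Each replicate number holds 1 array of each group, and each array set 2 of each. Either block therefore leaves the differences of nr3c1.L, nr3c1.S and sgk1.L at 1.19, -0.21 and -0.97 by design. Over the other settings nr3c1.L ran from 0.89, with sex-reversed replicate 4 counted as normal, to 1.19996, and sgk1.L from -1.06 to -0.96. With that array so counted, nr3c1.S gave 0.00280 and the centred r of nr3c1.S and sgk1.L gave 0.11, klf9.L -0.021, dusp1.L -0.17 and nedd4l.S 0.061, txnip.L 0.37, mlst8.L 0.27, jun.L -0.37 and scnn1g.S -0.44. Leaving out each array gave 0 to 2 passing probe sets, none of a member, and 1.05 to 1.38 for nr3c1.L, -0.51 to 0.0067 for nr3c1.S, -1.14 to -0.84 for sgk1.L, and centred r of -0.52 to 0.17 for nr3c1.L and -0.81 to -0.21 for nr3c1.S with sgk1.L. Without the 2 arrays farthest in nr3c1.L, normal replicates 1 and 2, its centred r with sgk1.L was 0.47 (exact permutation p = 0.0417 before adjustment), and the cause of these turns was not tested. The filter on low values removed all 3 members, and 12.3% of the remaining list genes (8 of 65) had an unadjusted p under 0.05, against 6.62% of the 5742 probe sets kept. Leaving out an array also turned the sign of genes near 0, with fkbp4.S at -0.14 to 0.20, klf9.L -0.036 to 0.40, tsc22d3.S -0.036 to 0.19, dusp1.L -0.032 to 0.45, hsp90ab1.S -0.090 to 0.19, nedd4l.S -0.13 to 0.14, scnn1a.L -0.026 to 0.11, scnn1b.S -0.27 to 1.03 and scnn1g.L -0.34 to 0.090. Others moved by over 1.5 times and came nearest to 0 with srd5a1.S at -0.43 without normal replicate 2, pomc.S at 0.28, nr3c2.L at 0.21 and ahsa1.L at -0.16 without normal replicate 1, pgrmc1.L at -0.090 and ndrg1.L at -0.21 without normal replicate 3, pomc.L at 0.16 and nr3c2.L at 0.21 without sex-reversed replicate 2, and scnn1g.S at -0.55 without sex-reversed replicate 3. The stroma mean stayed between -0.50 and -0.34. Settings for the joint receptor probe set, the list genes and the stroma mean were chosen after seeing the data.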
